A study of Lotus japonicus with 14 samples.

Results

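Nodules of the legume Lotus japonicus at 10 days after inoculation (dai), the oldest of the series, were compared with uninoculated roots. The comparison used 5 of the 14 libraries of the series, chosen by their labels: 3 nodule libraries and 2 root libraries. The nodules came from the mutant apn1, labelled Fix-, inoculated with Mesorhizobium loti MAFF303099, and from wild type plants (MG20, Miyakojima) inoculated with MAFF303099 or with the strain TONO. The roots came from uninoculated apn1 and wild type plants, 1 library each. The nodule library of apn1 with TONO at 10 dai was left out of the comparison by its rule, and is described separately. All plants grew in vermiculite with a nitrogen-free nutrient solution, per the labels' protocols, and nodules were cut from the roots before extraction of total RNA and depletion of ribosomal RNA.

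A root nodule is an organ in which rhizobia live inside plant cells and reduce atmospheric nitrogen to ammonia. Its formation needs perception of the bacteria, renewed cell division in the root cortex and, later, a set of nodule-specific plant proteins, among them the leghemoglobins, which keep free oxygen low. The gene APN1 encodes an aspartic peptidase, and its loss is known to impair nitrogen fixation with some rhizobial strains, TONO among them, more than with others. The tables carry identifiers of gene models without names, and 0 of 38476 identifiers matched the gene table supplied for the species. None of the 21 symbiosis genes listed for a check of tissue, leghemoglobins included, could therefore be paired with an identifier, and the labels nodule and root were not checked against such genes. For the same reason APN1 itself was not analysed here, and a gene model's role is not given.

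The nodule libraries held 35130845 to 37261815 counts and the root libraries 52272951 to 54816945, so total count differed between the tissues. Each condition had 1 library. The libraries of 1 tissue stood in for replicates, and the spread between them holds genotype and, among nodules, strain. The roots were uninoculated and carry no day, so that tissue, inoculation and age of the plant cannot be told apart. In RNA from whole nodules and roots, fewer cells of a type and less RNA per cell cannot be told apart either.

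About as many gene models were higher as were lower in nodules, but the strongest changes were increases. Of 32217 gene models tested, 12475 (38.7%) differed between 10 dai nodules and roots by edgeR's quasi-likelihood test at a Benjamini-Hochberg adjusted p under 0.05. They comprised 6153 (19.1%) higher and 6322 (19.6%) lower in nodules. At least 2-fold changes numbered 4029 (12.5%) higher and 4689 (14.6%) lower, and at least 4-fold changes 1697 (5.27%) and 1965 (6.1%). From 16-fold upwards the order turned, with 591 (1.83%) higher and 366 (1.14%) lower. At 64-fold or more there were 252 (0.782%) and 127 (0.394%), and at 256-fold or more 136 (0.422%) and 45 (0.14%). Of the last, 25 higher and 24 lower gene models had 0 counts in all libraries of the other tissue, so that their fitted fold depends on the prior count. For every one of the 12475 called gene models the 3 nodule libraries and the 2 roots did not overlap in level, as was the case for 20700 of all those tested (64.3%).

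The balance of directions rested on the scaling. With TMM scaling, which sets libraries to a common level over most gene models, 49.3% of the called gene models were higher in nodules, with a median log2 change of 0.00 over all gene models tested. With library totals alone 3776 were higher and 8596 lower, and that median was −0.28. With any single nodule library left out, 11391 to 11680 gene models passed. Leaving out either root leaves no spread between roots, so the number passing then cannot show whether the calls rest on the roots. The median log2 change over the gene models tested was −0.02 without the wild type root and −0.004 without the apn1 root. A test against a 2-fold change, which asks for more than a difference from 0, passed 2089 higher and 2294 lower gene models.

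**Figure D1:**
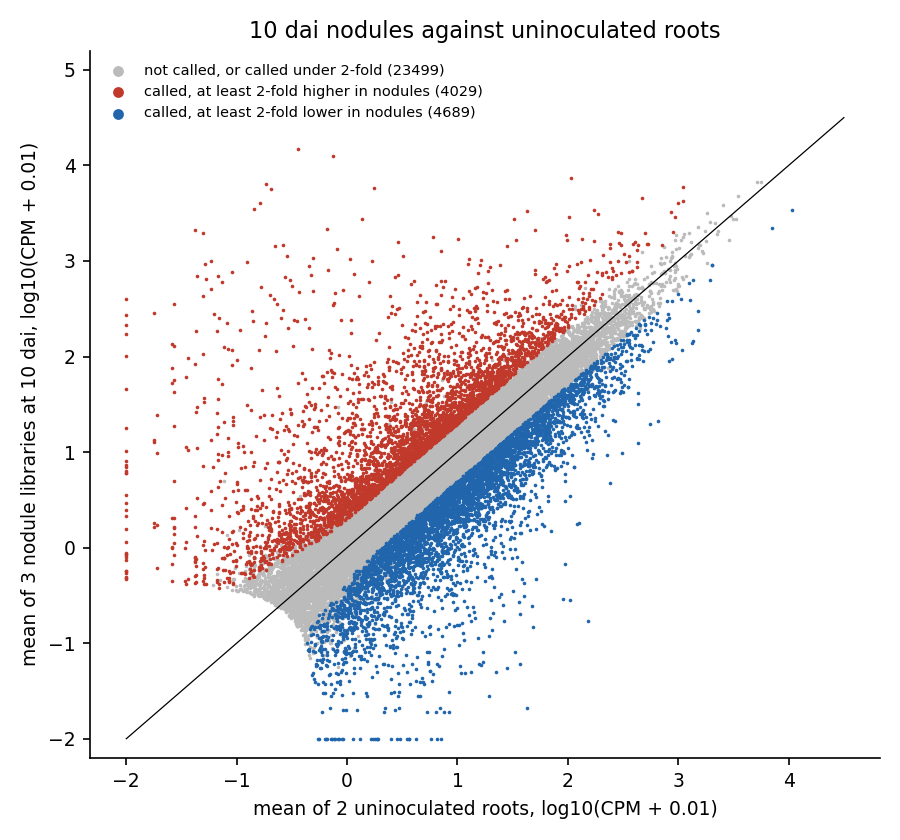
Mean level of each tested gene model in 3 nodule libraries at 10 dai (vertical) against its mean in 2 uninoculated roots (horizontal), both as log10 of CPM (counts scaled to 1000000 per library, with TMM factors) plus 0.01, with the line of equality. Red points are the 4029 gene models called and at least 2-fold higher in nodules, blue points the 4689 called and at least 2-fold lower, and red points reach farther from the line.

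The level in roots and the direction of change were related, as a description, since roots are part of the comparison. Levels are given in CPM after TMM scaling, not per length of the gene model. Among 5018 gene models under 1 CPM in roots, 1063 (21.2%) were called at least 2-fold higher and 229 (4.56%) lower. Only gene models averaging at least 10 counts over the 5 libraries, scaled to equal totals, were tested. Those scarcely counted in roots thus entered this lowest class only if their nodule counts were higher. This filter can by itself favour higher over lower calls in that class, and its part in the split was not tested. Among the 1632 over 100 CPM in roots, 94 (5.76%) were higher in this way and 387 (23.7%) lower. The classes between them lay in between, with 12.8% higher and 14.9% lower at 1 to 10 CPM, with 9.16% and 17.2% for 10 to 100 CPM. Transcripts already abundant in the root were thus more often lowered than raised.

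Passage across the whole range went mostly one way. There were 78 called gene models under 1 CPM in roots and over 100 CPM in nodules, against 2 over 100 CPM in roots and under 1 CPM in nodules. The 78 held 6.85% of all counts in apn1 nodules with MAFF303099, 7.52% in wild type nodules with MAFF303099 and 8.42% with TONO, against 0.00224% in the apn1 root and 0.00229% in the wild type root. Complete absence was shared more evenly, though not at every cut-off. The cut-offs are raw counts, which stand for lower CPM in roots, since the root libraries held more counts. Of 1809 gene models with 0 counts in both roots, 26 had at least 10 counts in each nodule library, 15 at least 100 and 6 at least 1000. Of 1913 with 0 counts in all 3 nodule libraries, 63 had at least 10 counts in each root, 13 at least 100 and 0 at least 1000. A count of 0 allows 3 counts over the libraries of a tissue, or 0.0280 CPM in roots and 0.0278 CPM in nodules.

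The gene models with the largest gain in mean CPM were chr5.CM0062.80.r2.m and chr5.CM0089.1200.r2.m, both numbered on chromosome 5. The model chr5.CM0062.80.r2.m had 452146 counts in apn1 nodules, 470617 in wild type nodules with MAFF303099 and 526289 with TONO, against 20 counts in the apn1 root and 22 in the wild type root. All 3 nodule libraries were thus high and both roots almost silent. Its mean level was 14699 ± 2751 CPM in nodules and 0.348 ± 0.0419 CPM in roots (SD over 3 and 2 libraries), and the log2 fold change was 15.36 (SE 0.53, adjusted p = 5.56e-06 by edgeR). For chr5.CM0089.1200.r2.m there were 360783, 389296 and 492923 counts in the nodule libraries in the same order, against 40 and 48 counts in the apn1 and wild type roots. This model averaged 12678 ± 3496 CPM in nodules and 0.731 ± 0.132 CPM in roots, or 14.08 on the log2 scale (SE 0.57, adjusted p = 6.65e-06 by edgeR). In both cases the TONO library was the highest of the 3. The gene models chr5.CM0062.80.r2.m and chr5.CM0089.1200.r2.m together made up 6.34% of all CPM gained.

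The largest losses in mean CPM belonged to transcripts that stayed abundant in nodules. For chr1.CM0113.680.r2.d there were 64439 counts in apn1 nodules, 83681 in wild type nodules with MAFF303099 and 175161 with TONO, against 791100 in the apn1 root and 521033 in the wild type root. The TONO library was the highest nodule library and still below both roots. Its mean was 3377 ± 2225 CPM in nodules and 10777 ± 2585 CPM in roots, or −1.67 on the log2 scale (SE 0.50, adjusted p = 0.0336 by edgeR). This call was lost when any library other than wild type nodules with TONO was left out. The edgeR adjusted p was 0.0605 without apn1 nodules and 0.0828 without wild type nodules with MAFF303099. Leaving out a root leaves 1 root, and the log2 fold change was −1.44 without the apn1 root and −1.94 without the wild type root. The model chr1.CM0113.680.r2.d also lost its call in the test against a 2-fold change (edgeR adjusted p = 0.220). Unlike it, LjSGA_000444.1 was even across libraries, with 72021, 74054 and 73049 counts in the nodule libraries in the order above, against 436470 in the apn1 root and 419348 in the wild type root. LjSGA_000444.1 averaged 2211 ± 242 CPM in nodules and 7079 ± 176 CPM in roots, or −1.68 on the log2 scale (SE 0.24, adjusted p = 0.00124 by edgeR). The identifier LjSGA_000444.1 names no chromosome.

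**Figure D2:**
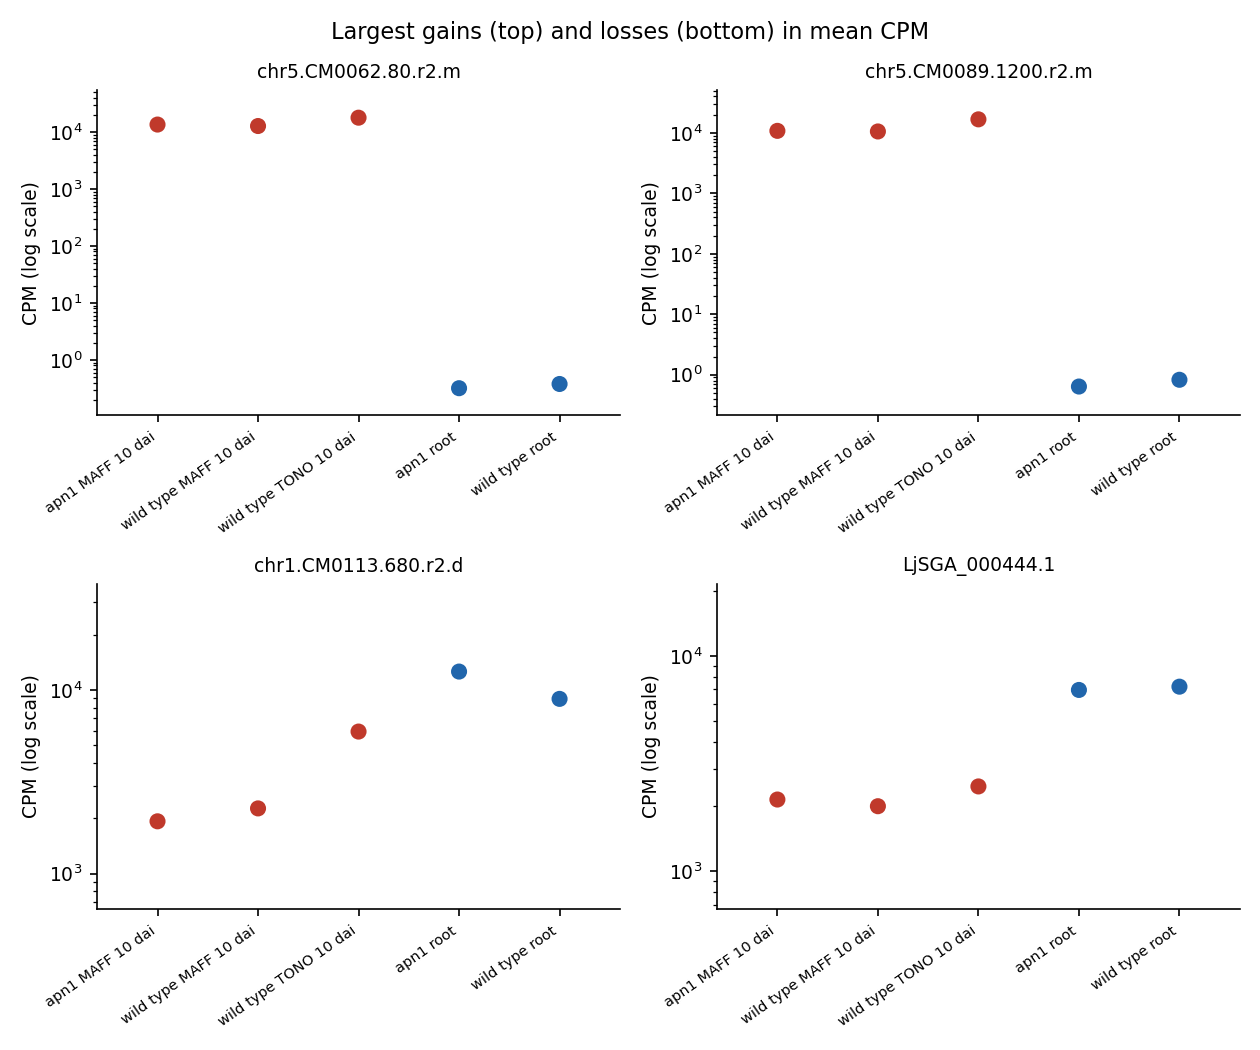
CPM on a log scale in each of the 5 libraries for the 2 gene models with the largest gain (top) and the 2 with the largest loss (bottom) in mean CPM. Red points are nodule libraries and blue points roots, 1 point per library; the groups do not overlap in any panel, and the TONO nodules lie nearest to the roots for chr1.CM0113.680.r2.d.

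Gains were concentrated in fewer gene models than losses. Summed over tested gene models, 154 made up 50% of the CPM gained in nodules, and 485 made up 50% of the CPM lost. The top 10 accounted for 16.0% of the gain and 9.62% of the loss, and the top 100 for 43.1% and 26.2%. These are shares of unlike totals, 431499 CPM gained and 228742 CPM lost. Both totals depend on the TMM scaling, and the concentration under another scaling was not tested. The 100 most abundant gene models of each library held 21.8% of the counts in apn1 nodules, 22.6% in wild type nodules with MAFF303099 and 25.7% with TONO, against 17.2% in the apn1 root and 16.9% in the wild type root. The nodule mean was 23.4 ± 2.07% and the root mean 17.1 ± 0.186%. An exact two-sided permutation test gave p = 0.2, the smallest that 3 libraries against 2 allow. After thinning to 35130845 counts, 32588, 32923 and 32063 gene models had at least 5 counts in the nodule libraries in the same order, against 33227 in the apn1 root and 33181 in the wild type root (exact permutation p = 0.2). Fewer gene models were thus detected in each nodule library than in either root at equal total count. The TMM factors were 0.829 to 0.992 in nodules and 1.11 to 1.15 in roots, so that depth over most gene models was not made equal by thinning, and the part of this was not tested.

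**Figure D3:**
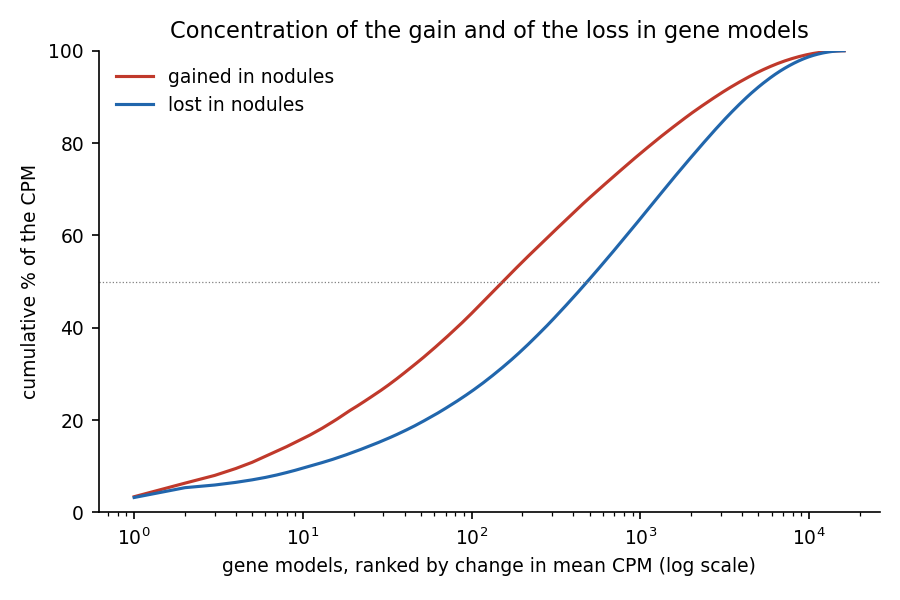
Cumulative percentage of the CPM gained (red) or lost (blue) in 10 dai nodules relative to roots, over gene models ranked by their change in mean CPM on a log scale. The dotted line marks 50%, which the gain reaches at 154 gene models and the loss at 485.

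The tissues stood farther apart than the libraries within a tissue. Between nodules and roots 10237 to 11769 gene models were at least 2-fold apart in the 6 pairs of libraries, with median absolute log2 differences of 0.61 to 0.71. Among the 3 pairs of nodule libraries the numbers were 3379 to 3782, and the medians 0.29 to 0.35. The apn1 and wild type roots were at least 2-fold apart at 1615 gene models, with a median of 0.24. Pairs of nodule libraries, which differ in genotype, strain or both, thus differed more than the pair of roots, which differ in genotype. There was only 1 pair of roots. The nodule libraries also held fewer counts, and the part of counting error in this was not tested.

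Each nodule library was then set against the root of its own plant line, 1 library against 1 and without a test. In apn1 with MAFF303099, 4678 gene models (14.5%) were at least 2-fold higher than in the root and 5559 (17.3%) at least 2-fold lower. In wild type the numbers were 5273 (16.4%) and 6287 (19.5%) with MAFF303099, and 5092 (15.8%) and 6677 (20.7%) with TONO, and these share the wild type root. The apn1 pair shares no library with the wild type pairs, so genes chosen in the apn1 pair can be read in a wild type pair. Of 1744 gene models (5.41%) at least 4-fold higher in apn1 nodules than in the apn1 root, 1574 (90.3%) were at least 2-fold higher in wild type nodules with MAFF303099, against 16.4% of all tested, and 19 were at least 2-fold lower. Their median log2 difference was 3.06 in apn1 and 2.93 in wild type. Among 2218 (6.88%) at least 4-fold lower in apn1, 1948 (87.8%) were at least 2-fold lower in wild type, against 19.5% of all, and 12 were at least 2-fold higher. The medians of these lowered gene models were −2.73 in apn1 and −2.44 in wild type. With wild type nodules formed with TONO, 90.9% of the 1744 and 89.2% of the 2218 moved the same way by at least 2-fold. At 16-fold or more apn1 had 556 raised (1.73%) and 367 lowered (1.14%) gene models. Of these, 549 (98.7%) and 359 (97.8%) moved the same way by at least 2-fold in wild type with MAFF303099. Larger changes in apn1 were thus more often found in wild type too, at the same bar of 2-fold. A choice at a higher fold can by itself give a higher share past a fixed bar, and the part of this was not tested.

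Nodule libraries differed in how far the called gene models had moved. Of 1697 gene models called at least 4-fold higher, 891 were highest in wild type with TONO, 480 in wild type with MAFF303099 and 326 in apn1 with MAFF303099. Over all gene models tested, 10885, 10977 and 10355 were highest in these libraries in the same order, so the excess in TONO was not seen there. The 1965 called at least 4-fold lower gave 684, 686 and 595 in that order, and the lowest library was likewise evenly spread. Among the raised gene models 380 (22.4%) differed at least 2-fold between the highest and the lowest nodule library, against 956 (48.7%) of the lowered ones and 21.2% of all tested. The median of the mean nodule counts was 712 for raised gene models, 28.3 for lowered ones and 215 for all tested, and the part of counting error in this was not tested.

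Whether the response differed between the plant lines was tested as the difference between apn1 (MAFF303099 nodules minus root) and wild type (mean of both nodule libraries minus root). Here 7 of 32217 gene models (0.0217%) passed edgeR's test, 4 with a higher and 3 with a lower response in apn1, and 1015 had an unadjusted p under 0.05. Those 1015 were fewer than a threshold of 0.05 would give among 32217 gene models without any difference. The spread rests on 1 residual degree of freedom, that between the MAFF303099 and TONO nodules of wild type. All 7 passed with limma, which called 14, and with DESeq2, which called 30. By size alone, 502 of the 32217 gene models had a response at least 4-fold higher in apn1 and 325 at least 4-fold lower.

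The gene models with the highest difference were above the root in apn1 nodules and below it in wild type nodules. For chr6.CM0314.750.r2.d there were 432 counts in apn1 nodules and 145 in the apn1 root, against 5 and 8 counts in wild type nodules with MAFF303099 and TONO and 212 in the wild type root. The log2 difference of responses was 6.66 (SE 0.79, edgeR adjusted p = 0.0264). The model chr3.CM0460.20.r2.d had 860 counts in apn1 nodules and 156 in the apn1 root, against 36 and 37 in wild type nodules and 233 in the wild type root (log2 difference 5.22, SE 0.60, edgeR adjusted p = 0.0264). The nodules of apn1 with TONO at 10 dai, which the test did not use, had 754 counts of chr6.CM0314.750.r2.d and 1260 of chr3.CM0460.20.r2.d. Both values lay with the apn1 nodules of that day and not with those of wild type. At 5 dai the plant lines were not apart. With MAFF303099 and TONO, chr6.CM0314.750.r2.d then had 70 and 9 counts in apn1, against 79 and 8 in wild type. The model chr3.CM0460.20.r2.d had 374 and 366, against 343 and 465. At 7 dai the first had 194 and 324 against 45 and 32, and the second 618 and 830 against 387 and 155.

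For the gene models with the lowest difference, the wider gap between the plant lines lay in the root libraries. LjSGA_031521.1.1 had 466 counts in apn1 nodules and 587 in the apn1 root, against 1010 and 556 in wild type nodules and 24 in the wild type root (log2 difference −5.22, SE 0.62, edgeR adjusted p = 0.0275). LjSGA_026650.1 had 1345 counts in apn1 nodules and 1728 in the apn1 root, against 3070 and 1815 in wild type nodules and 91 in the wild type root (log2 difference −4.98, SE 0.55, edgeR adjusted p = 0.0264). The root libraries held more counts in total, and in CPM both gene models were higher in apn1 nodules than in the apn1 root. Levels were 13.9 against 9.35 CPM for LjSGA_031521.1.1 and 40.2 against 27.5 CPM for LjSGA_026650.1. In the apn1 nodules with TONO at 10 dai the counts were 29 for LjSGA_031521.1.1 and 108 for LjSGA_026650.1, far below the other 3 nodule libraries of that day. Levels also varied between younger nodules of both plant lines. LjSGA_031521.1.1 had 29 and 349 counts in apn1 nodules of 5 dai with MAFF303099 and TONO and 29 and 14 in those of 7 dai, against 59 and 183 in wild type nodules of 5 dai and 31 and 25 in those of 7 dai. LjSGA_026650.1 ranged from 112 to 849 counts in the apn1 nodules of 5 and 7 dai and from 107 to 737 in those of wild type, so that neither gene model kept 1 level within a plant line. Each root is 1 library, so a difference between plant lines and one between these roots as samples cannot be told apart. LjSGA_026650.1 and LjSGA_031521.1.1 rose and fell together, with a count ratio of 2.43 to 8.07 over the 14 libraries. Whether they share reads, as copies or as parts of 1 gene, was not tested, so they may not be separate results.

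**Figure D4:**
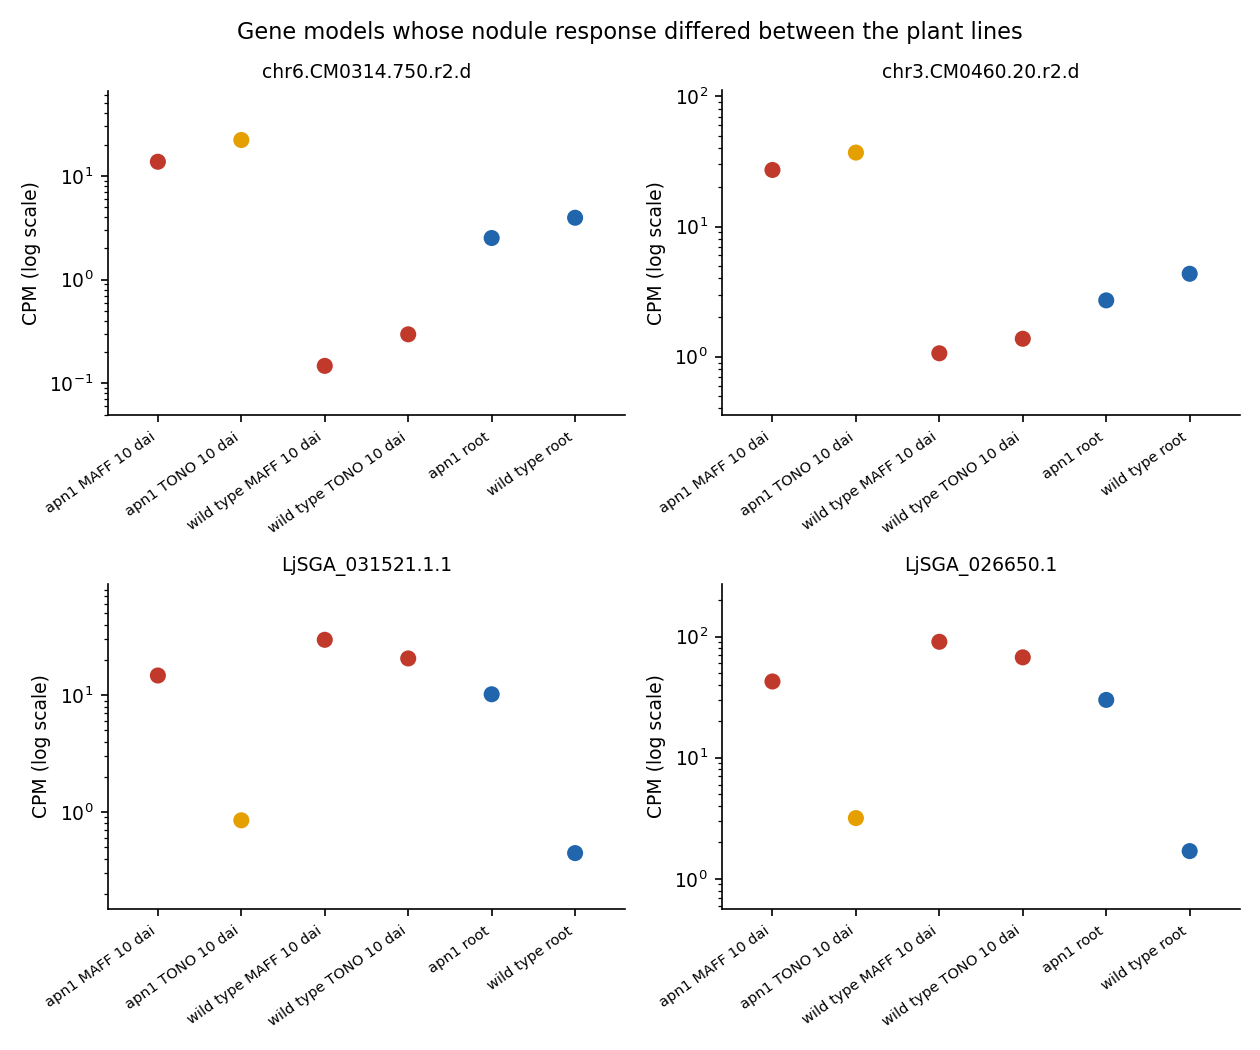
CPM on a log scale, scaled over all 14 libraries, of the 2 gene models with the highest (top) and the 2 with the lowest (bottom) difference of nodule response between apn1 and wild type. Red points are the nodule libraries compared, the orange point is the apn1 TONO library of 10 dai that the test did not use, and blue points are roots. In the top panels both apn1 nodule libraries lie above both wild type nodule libraries, and in the bottom panels the wild type root is the lowest point.

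The called gene models were then followed in libraries that did not choose them. Their place was measured on the log2 CPM scale, as 0 at the mean of the roots and 1 at the mean of the 3 nodule libraries of 10 dai. Levels over all 14 libraries were had for 1689 of the 1697 gene models raised at least 4-fold and for 1933 of the 1965 lowered at least 4-fold, and no test was made, since the roots set the scale. Of the raised gene models 38.8% to 48.3% had passed the midpoint in the 4 libraries of 5 dai, against 79.0% to 84.5% for 7 dai. For the lowered ones it was 53.6% to 56.7% at 5 dai and 67.7% to 72.0% at 7 dai. Lowered gene models were thus ahead of raised ones at 5 dai and behind them at 7 dai, in every library of those days. At 5 dai 549 raised gene models (32.5%) and 804 lowered ones (41.6%) had passed the midpoint in all 4 libraries. Conversely, 158 raised gene models (9.35%) and 285 lowered ones (14.7%) were short of it in all 8 libraries of 5 and 7 dai.

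The share of counts gave the same sequence. Raised gene models held 1.85% of the counts in the apn1 root and 1.95% in the wild type root, then 7.36% to 8.96% in nodules of 5 dai and 15.5% to 19.5% in those of 7 dai. At 10 dai they held 23.2% in apn1 with MAFF303099, 24.9% in wild type with MAFF303099 and 27.7% in wild type with TONO. The lowered gene models held 7.41% and 7.48% in the apn1 and wild type roots, 2.58% to 2.96% with 5 dai, 1.61% to 1.78% with 7 dai, and 0.888% to 0.922% in the 3 nodule libraries of 10 dai. The widest gap for lowered gene models lay between roots and 5 dai, whereas the share of raised ones grew at each day in 3 of the 4 series of nodules. The exception was apn1 with TONO, with 15.5% at 7 dai and 15.3% at 10 dai. The shares in roots and at 10 dai follow from how the gene models were chosen.

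The apn1 nodules with TONO at 10 dai lay between the roots and the other nodules of that day for most of the called gene models. These other nodules chose the gene models and set the scale, which can by itself place a library left out lower. The median place of apn1 with TONO was 0.81 for raised and 0.81 for lowered gene models, and 84.8% of the raised and 85.5% of the lowered had passed the midpoint. The raised gene models held 15.3% of the counts there, less than in any of the 3 nodule libraries compared, and the lowered held 1.52%, more than in any of them. For a like comparison, chosen after seeing the data, each of the 3 nodule libraries was in turn left out of the choice and of the scale. The library left out then had a median place of 0.93 to 1.04 for raised and 0.92 to 0.96 for lowered gene models. On the same scales apn1 with TONO had 0.78 to 0.82 and 0.77 to 0.79, below the library left out in all 3 cases. Most of the change was present in apn1 with TONO too. With it added to the nodules, 10294 gene models passed edgeR's test, 4966 higher and 5328 lower, and 10047 of them were among the 12475. That fit kept all libraries that had given the 12475, so the overlap largely follows from them. It does not show what apn1 with TONO holds by itself.

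Some abundant gene models were short of the midpoint in that library. Of 396 raised at least 4-fold and averaging at least 100 CPM in nodules, 57 were. Of 136 lowered at least 4-fold and averaging at least 100 CPM in roots, 11 were. The median place of these abundant gene models was 0.79 for raised and 0.84 for lowered, near the 0.81 of all raised and all lowered ones. Of all raised and lowered gene models, 84.8% and 85.5% had passed the midpoint. The nearest to the roots was chr6.CM0013.1250.r2.m, with 1752 counts in apn1 with TONO and 6725, 9354 and 7158 in the 3 nodule libraries compared (apn1, wild type with MAFF303099, wild type with TONO), against 3376 in the apn1 root and 2586 in the wild type root. Its place was −0.02. Next came chr2.CM0065.600.r2.d, with 4979 counts in apn1 with TONO and 13925, 18085 and 21311 in the others, against 7749 and 7878 in the apn1 and wild type roots, a place of 0.03. Both were called in the comparison of nodules with roots, with log2 fold changes of 2.24 (SE 0.21, edgeR adjusted p = 0.000191) and 2.07 (SE 0.29, edgeR adjusted p = 0.00118). With the apn1 TONO library added, by which they were picked, their log2 fold changes were 1.92 and 1.77, with edgeR adjusted p-values of 0.0506 and 0.0565.

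Among lowered gene models the nearest to the roots was chr6.CM0118.650.r2.m, with 3881 counts in apn1 with TONO and 2346, 571 and 941 in the 3 nodule libraries compared, against 14819 in the apn1 root and 6415 in the wild type root, a place of 0.27. It fell by 2.14 on the log2 scale (SE 0.63, edgeR adjusted p = 0.0375), a call lost without wild type nodules with TONO, the apn1 root or the wild type root, with adjusted p-values of 0.150, 0.213 and 0.0677. The call was also lost with the apn1 TONO library added (log2 fold change −1.64, edgeR adjusted p = 0.0960), without a filter on low counts (0.0699) and in the test against a 2-fold change (0.176). For chr3.CM0786.370.r2.a there were 6074 counts in apn1 with TONO and 2567, 701 and 936 in the other nodules, against 22798 and 15641 in the apn1 and wild type roots, a place of 0.30. The model chr3.CM0786.370.r2.a fell by 2.89 on the log2 scale (SE 0.56, edgeR adjusted p = 0.00811), and its adjusted p was 0.0559 without wild type nodules with TONO and 0.0592 with the apn1 TONO library added (log2 fold change −2.12). Both apn1 nodule libraries had more counts of these gene models than either wild type nodule library, but the apn1 TONO library was used to pick them. The apn1 root also had more counts of both than the wild type root. Their log2 differences of response between the plant lines were 0.47 for chr6.CM0118.650.r2.m and 1.16 for chr3.CM0786.370.r2.a, and neither passed edgeR's test.

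**Figure D5:**
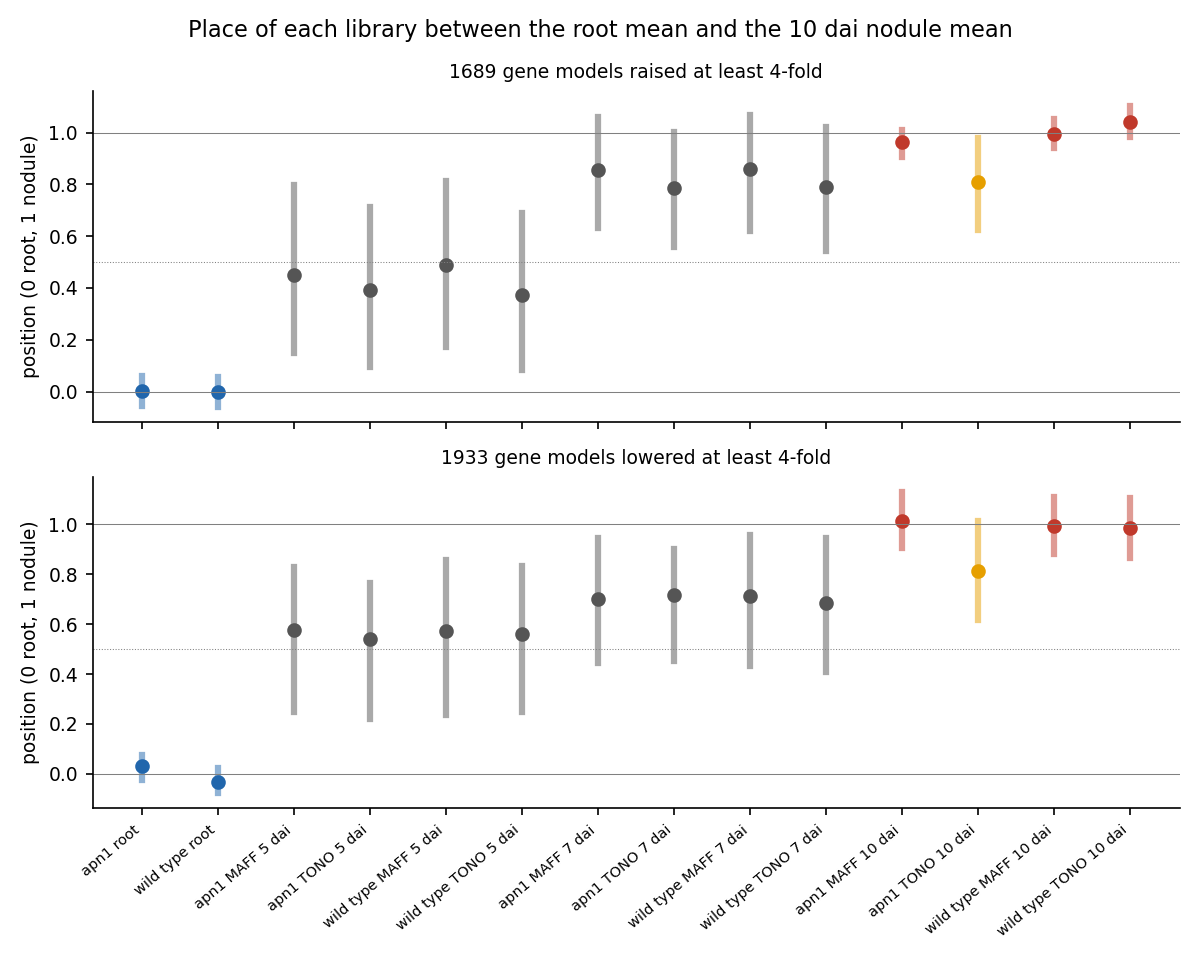
Place of each library between the mean of the roots (0) and the mean of the 3 nodule libraries of 10 dai (1) on the log2 CPM scale, for 1689 gene models raised (top) and 1933 lowered (bottom) at least 4-fold. Points are medians and bars the quartiles over gene models. Blue marks roots, grey 5 and 7 dai, red the nodules compared and orange apn1 with TONO at 10 dai, which lies at 0.81 in both panels.

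Position was read from the identifiers, which for part of the gene models name a chromosome and a contig; the genome build is not given in the sources used here. By chromosome the share called at least 2-fold higher ran only from 12.6% on chromosome 3 to 14.7% on chromosome 5, and the share lowered from 12.9% on chromosome 1 to 15.3% on chromosome 2. The 13909 gene models without a chromosome had 11.3% raised and 14.9% lowered. Neighbouring gene models were called in the same direction more often than gene models in general. Of 2496 raised gene models with a next-numbered tested model on the same contig, 671 (26.9%) had a raised one there, against 13.5% of all next models, and 245 (9.82%) a lowered one, against 14.2%. Of 2623 lowered ones, 640 (24.4%) had a lowered neighbour, against 14.2%, and 267 (10.2%) a raised one, against 13.5%. Neighbouring models can share reads, as copies or as parts of 1 gene, and the part of this was not tested.

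Some contigs stood out among the 278 with at least 20 tested gene models, whose median share was 13.0% raised and 13.5% lowered. As the extremes of 278 they are given as values without a test. On contig chr4.CM0219 of chromosome 4, 12 of 25 gene models (48.0%) were called at least 2-fold higher, with log2 fold changes of 1.11 to 3.31, and 4 were lower. Of the 12, 11 were at least 2-fold higher in each of the 3 nodule libraries than in the root of the same plant line. On chr1.CM2079 of chromosome 1, 8 of 22 (36.4%) were raised, by 1.32 to 7.80 on the log2 scale, and all 8 in each of the 3 pairs. The highest shares lowered were on chr6.CM0573, with 9 of 24 (37.5%) at −3.15 to −1.05, and on chr3.CM0649, with 9 of 25 (36.0%) at −2.66 to −1.60. All 9 of chr3.CM0649 were at least 2-fold lower in each pair and 0 of its models were raised, whereas 2 of the 9 of chr6.CM0573 were lower by that much in each pair.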

How the data were processed

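The authors deposited 12 tables, each with 1 nodule library and the uninoculated root of the same genotype. Per the file headers they hold the original read count of 38476 gene models and a signal normalized with iDEGES/DESeq. The deposited signal is the count over a factor of its library, set within each pair. Bowtie2 2.0.2 and DESeq are named in the submitters' processing notes. For the counting tool, genome build, annotation and strand, the answer is not given in the sources used here. Reads may therefore be shared between near-identical copies, or between antisense or overlapping models. A root's counts were the same in all 6 of its tables, and it entered once.

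Counts of the 5 libraries, with gene models averaging at least 10 counts after scaling to equal totals (32217 of 38476), were fitted with edgeR 4.0.16 (R 4.3.3, TMM scaling, quasi-likelihood test, two-sided, tissue as the only term, 3 residual degrees of freedom). The biological coefficient of variation was 24.6%. Standard errors are the size of the log2 fold change over the root of F. Pairwise log2 CPM used a prior count of 2. Alternatives used DESeq2 1.42.0 and limma 3.58.1, and figures matplotlib 3.10.9 under Python 3.11.15. The edgeR script was tested on simulated counts with known changes. Nothing in the labels shows separate plantings, so p-values measure only the spread between these libraries. Reads carry no molecular identifiers, so floors cover counting error only.

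The comparison, the lists and the rules were chosen with earlier results of these data known. Gene models are named by rule, at most 2 that rose and 2 that fell per comparison: the largest gain and loss of mean CPM among called gene models whose libraries do not overlap, the highest and lowest called difference of response, and the place nearest to the roots in apn1 with TONO. Contigs are those with the highest share raised or lowered.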

Additional observations from a re-analysis of the deposited data

Results flagged for a closer look

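The difference between nodules and root was itself compared between the apn1 and wild type libraries, and the 4 gene models named for it passed edgeR's test. The log2 difference of the apn1 from the wild type response was 6.66 for chr6.CM0314.750.r2.d, 5.22 for chr3.CM0460.20.r2.d, −4.98 for LjSGA_026650.1 and −5.22 for LjSGA_031521.1.1. Each rests on 1 apn1 nodule library and 1 root per plant line, with 1 residual degree of freedom from the wild type nodules, so a difference between plant lines and one between single libraries cannot be told apart.

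A signal was also seen in a library that the comparison did not use. In apn1 nodules with TONO at 10 dai, the gene models raised at least 4-fold held 15.3% of the counts. They held 1.85% in the apn1 root and 1.95% in the wild type root, and 23.2% to 27.7% in the nodule libraries compared. In apn1 with TONO at 7 dai they held 15.5%. The low shares in roots follow from how these gene models were chosen, so the contrast with roots is not an independent result.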

How the results depend on the processing

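Between 10 dai nodules and roots 12475 gene models were called. With 1 library left out 6761 to 11680 passed, the lowest number without the wild type root, where 6663 of them were among the 12475. With wild type libraries alone, an alternative chosen after seeing the data, 7198 passed, and 4383 passed the test against a 2-fold change. The other settings gave 10294 to 15559. Gene models called both here and in an alternative kept their direction in each of the 17 alternatives. This could hardly come out otherwise, since the libraries were largely the same and gene models that lost their call were not counted. With library totals alone in place of TMM scaling, 10098 of the 12475 kept their call. With the plant line as a replicate block 11391 passed, 11068 of them among the 12475. The labels give no replicate numbers, so no other pairing was made. The block was run for nodules against roots only, and under it no named gene model lost its call. For the difference of response between the plant lines, 7 gene models passed with edgeR, 14 with limma, 30 with DESeq2 and 79 without a filter on low counts. The cause was not tested. That model has no residual degrees of freedom without either wild type nodule library, and an empty cell without any other library; by size, 1084 gene models were at least 4-fold apart without the TONO library and 827 with it.

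Choosing genes at 2-fold and at 16-fold in place of 4-fold moved the share past the midpoint, for raised gene models to 73.2% and 90.4% at 7 dai (main value 81.7%) and to 77.9% and 93.2% in apn1 with TONO. For lowered ones it gave 66.2% and 84.9% at 7 dai (70.2%), 66.0% at 5 dai with 16-fold (55.8%), and 80.0% and 88.9% in apn1 with TONO. Counting calls of any fold, 32.0% of raised and 28.2% of lowered gene models had a neighbour called the same way, against 20.9% and 19.5% of all next models. Depth limits low levels: nodule libraries held fewer counts than roots, and a count of 0 allows up to 3.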
